A study of Mus musculus with 67 samples.

Results

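Mouse small intestinal organoids were grown in the 8C condition, a medium with 8 components, and in the same medium without GSK3iXV (GSK-3 Inhibitor XV), an inhibitor of the kinases GSK3A and GSK3B. The 6 libraries compared were 8C -GSK3i replicates 1 to 3 and 8C replicates 4 to 6, out of 67 in the series, 49 of them from organoids. Their groups and replicate numbers are those of the labels. The labels state neither the choice of 8C replicates 4 to 6 nor the pairing of omission number n with 8C number n + 3. Both were chosen with earlier results of these data known. The full medium held 0.1 µM GSK3iXV, and the omission medium held 0 µM. The other 7 components were the same in both media: the growth factors bFGF (20 ng/mL) and EGF (50 ng/mL), conditioned medium with R-Spondin 1 (10%), the kinase inhibitor Pexmetinib (1 µM), the BMP receptor inhibitor LDN193189 (0.2 µM), the EZH2 inhibitor EPZ6438 (2 µM) and VPA, which blocks histone deacetylases (500 µM). For a second comparison, 9 libraries lacked a different component: 3 without bFGF (8C -bFGF), 3 without EGF (8C -EGF) and 3 without Pexmetinib (8C -Pex), each of which held GSK3iXV. The labels state neither the age or strain of the mice behind these cultures nor for how long GSK3iXV was left out, and they do not name the mice. The study describes the replicates of its omission experiment as separate mice, and in these libraries replicates 1 and 2 of 8C -GSK3i held Xist and no Y-linked transcripts while replicate 3 held the reverse. Expression was given in TPM (a read count divided by transcript length and scaled to a fixed library total), which does not keep the sequencing depth.

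GSK3 phosphorylates beta-catenin (Ctnnb1) in a complex with Axin and Apc and so marks it for destruction. Wnt ligands, whose signal R-Spondins strengthen, stop this complex, and beta-catenin then acts with TCF/LEF factors on target genes such as Axin2, Sp5 and Lgr5. In the intestine this pathway maintains crypt base stem cells and Paneth cells, whereas absorptive enterocytes and secretory goblet cells mature away from the crypt base. A GSK3 inhibitor imitates the Wnt signal inside the cell, and GSK3 has substrates outside the pathway as well, among them glycogen synthase.

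The libraries were epithelial. All 10 epithelial markers were at 1 TPM or more in each of the 6 libraries, and their summed level lay between 14263 and 16347 TPM in 8C -GSK3i and between 13016 and 16878 TPM in 8C replicates 4 to 6. The 10 fibroblast markers, none of which reached 1 TPM in all 6 libraries, summed to between 1.57 and 2.10 TPM over the 6 libraries, and Lum was at 0 in all of them. Of 8 endothelial markers, Cdh5, Kdr and Emcn were at 0, and the sum, mostly Esam, lay between 15.01 and 18.3 TPM in 8C -GSK3i and between 20.4 and 23.9 TPM in 8C replicates 4 to 6. Of 10 immune markers, Cd3e and Adgre1 were at 0, and the sum, mostly Cd68, lay between 4.71 and 8.86 TPM in 8C -GSK3i and between 6.54 and 16.2 TPM in 8C replicates 4 to 6. The 13 mitochondrial genes coding for proteins summed to 21525 to 27052 TPM in 8C -GSK3i and 16169 to 24419.6 TPM in 8C replicates 4 to 6, and with them removed and the rest rescaled 97 genes were called instead of 89. The mRNA of the inhibitor's own targets was close in both groups: Gsk3a differed by 0.028 (95% confidence interval -0.14 to 0.20, adjusted p = 0.914) and Gsk3b by -0.032 (95% confidence interval -0.36 to 0.30, adjusted p = 0.953) on the log2 scale.

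In the libraries without GSK3iXV, 89 of 12708 genes changed by at least 2-fold at an adjusted p under 0.05 (limma on log2(TPM + 1) with pairs as a block), 55 of them higher and 34 lower. This is 0.7% of the genes tested, with 0.433% higher and 0.268% lower, and genes that met both conditions are named as called below. The groups did not overlap for 71 of the 89, against 13.8% of all genes tested. The 6 largest falls among the named genes were those of Cyp1b1, Ifitm1, Igfbp2, Cyp1a1, Sox14 and Igfbp3, and genes of goblet cells, enterocytes and tuft cells stood among the rises. Cyp1b1, Ifitm1 and Sox14 averaged under 1 TPM in the omission, and Ggt1, Gnat3 and Tff2 in 8C, so these 6 reached the minimum mean of 1 TPM over the 6 libraries only through the group where they were high. The call rested on the pairing: without the replicate block, 7 genes were called (0.0551%), Klk1, Muc2, Reg4, Treh, Aqp5 and Afp higher and Fscn1 lower, and 1070 (8.42%) were at an unadjusted p under 0.05 instead of 1925 (15.1%). It also rested on which 8C libraries were used. Against 8C replicates 1 to 3, which the labels place in the same group, 732 genes were called (5.77%), 441 of them higher (3.47%) and 291 lower (2.29%), which is the background for every count of calls against those libraries given below, and 42 of the 89 were called there in the same direction. Against all 7 8C replicates without a block, 0 genes were called by limma, with 836 at an unadjusted p under 0.05. Of the 36 called genes that the naming rule picked, 19 were called against 8C replicates 1 to 3 in the same direction, 13 were not called, and Ccl6, Gip, Mptx1 and Reg4 had the opposite sign. For these reasons, values against the other 8C libraries are given beside many of the results. The 13 not called were Cyp4a10, Aqp5, Ggt1, Tff2, Cyp3a25, Apoc3, Akp3, Cyp3a11, Clca1, Defa26, Sst, Igfbp2 and Fn1.

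Cyp1a1, Cyp1b1, Igfbp2 and Igfbp3 are among the 6 largest falls and form pairs of related genes. Whether sequences upstream of them act on these changes was not tested. The upstream sequences of these 4 genes and of the Wnt target gene Sp5, which was not called, are shown. They are the 250 bases before the transcription start in RefSeq (build GRCm38.p6), 5′ to 3′ on the gene's own strand. In the first 4, capitals mark GCGTG on either strand, the core letters that the aryl hydrocarbon receptor binds. In Sp5 they mark CTTTGAT on either strand, letters of a TCF/LEF site.
Cyp1a1, chr9:57697363-57697612, plus strand: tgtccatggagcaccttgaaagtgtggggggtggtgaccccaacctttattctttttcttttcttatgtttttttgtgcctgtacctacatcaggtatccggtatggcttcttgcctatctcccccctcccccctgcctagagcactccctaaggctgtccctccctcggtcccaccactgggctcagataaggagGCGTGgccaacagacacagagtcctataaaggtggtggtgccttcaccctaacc
Cyp1b1, chr17:79715062-79715311, minus strand: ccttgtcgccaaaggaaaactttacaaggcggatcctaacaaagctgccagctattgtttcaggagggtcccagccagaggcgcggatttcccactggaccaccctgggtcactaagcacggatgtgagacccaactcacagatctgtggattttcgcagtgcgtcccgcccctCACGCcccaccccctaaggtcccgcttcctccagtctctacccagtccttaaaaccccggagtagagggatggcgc
Igfbp2, chr1:72824230-72824479, plus strand: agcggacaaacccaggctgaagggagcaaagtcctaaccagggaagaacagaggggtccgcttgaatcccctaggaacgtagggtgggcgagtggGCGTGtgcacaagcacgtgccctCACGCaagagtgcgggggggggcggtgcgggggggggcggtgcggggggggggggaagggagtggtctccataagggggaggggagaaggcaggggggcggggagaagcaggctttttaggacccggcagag
Igfbp3, chr11:7213924-7214173, minus strand: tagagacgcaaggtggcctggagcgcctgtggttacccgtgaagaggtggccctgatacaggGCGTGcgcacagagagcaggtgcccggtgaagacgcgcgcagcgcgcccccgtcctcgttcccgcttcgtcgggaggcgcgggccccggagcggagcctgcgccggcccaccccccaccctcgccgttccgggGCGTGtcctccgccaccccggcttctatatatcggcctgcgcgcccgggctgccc
Sp5, chr2:70474673-70474922, plus strand: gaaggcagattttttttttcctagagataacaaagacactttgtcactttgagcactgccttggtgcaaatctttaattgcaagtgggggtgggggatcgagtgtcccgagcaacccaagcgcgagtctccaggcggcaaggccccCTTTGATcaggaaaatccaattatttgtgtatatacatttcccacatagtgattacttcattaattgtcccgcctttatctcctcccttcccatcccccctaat
GCGTG had 1 match in each of the Cyp1a1 and Cyp1b1 windows, 54 and 76 bases before the start, and 2 matches in the Igfbp3 window and in the window of the first of 2 Igfbp2 starts. It occurs in 28.2% of 32851 such windows. The longer form TNGCGTG, which contains GCGTG and occurs in 4.1%, was found in the Igfbp2 window and in none of the other 3, and also in that of Nkd1, which was not called. CTTTGAT lay 104 bases before the Sp5 start and occurs in 3.21% of windows. Neither CTTTGAT nor CTTTGAA, which occurs in 4.46%, was in the Axin2, Nkd1 or Ascl2 window, while CTTTGAT lay 202 bases before the first start of Tnfrsf19. GCGTG also occurred in windows of genes that were not called, with 1 match for Nkd1, 1 for Rnf43, 1 for the second start of Tnfrsf19 and 3 for Ascl2.

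Cytochrome P450 genes of the aryl hydrocarbon receptor response fell. Cyp1a1, an enzyme that oxidises aromatic xenobiotics, stood at 6.94, 7.17 and 13.7 TPM in 8C -GSK3i replicates 1 to 3 and at 17.6, 27.8 and 63.6 TPM in 8C replicates 4 to 6 (log2 fold change -1.73 ± 0.16 SE, adjusted p = 0.000871). Its highest level without the inhibitor was below the lowest level with it. Cyp1b1, a related enzyme, measured 0.517, 0.226 and 0.590 TPM without GSK3iXV against 4.14, 6.88 and 25.8 TPM with it (log2 fold change -2.84 ± 0.40 SE, adjusted p = 0.0188). The levels without GSK3iXV were all under 1 TPM, where adding 1 TPM makes the fold change smaller than the ratio of levels. The libraries of pair 3 were the highest of their group for both genes. Other genes of the response did not pass the test: the receptor Ahr differed by 0.13 (adjusted p = 0.795), its partner Arnt by -0.05 (adjusted p = 0.891), the target Tiparp by -0.21 (adjusted p = 0.443), and Nqo1, a target that NRF2 also drives, by 0.36 (adjusted p = 0.0815). Ahrr, Cyp1a2, Aldh3a1 and Ugt1a6a were below the mean of 1 TPM needed for the test. This list was drawn up after the values of Cyp1a1 and Cyp1b1 were seen. In 8C replicates 1 to 3, Cyp1a1 stood at 88.0, 68.1 and 88.9 TPM and Cyp1b1 at 11.2, 2.30 and 10.9 TPM, again above every library without the inhibitor. In 8C replicate 7 they stood at 16.1 and 0.295 TPM, so that for Cyp1b1 this library with the full medium lay within the range of the omission.

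IGF-binding proteins, secreted carriers that hold insulin-like growth factors, were a further group. Igfbp2 measured 32.0, 39.0 and 45.8 TPM in 8C -GSK3i against 125, 236 and 316 TPM in 8C replicates 4 to 6 (log2 fold change -2.42 ± 0.14 SE, adjusted p = 0.000186). Igfbp3 measured 9.66, 3.79 and 9.79 TPM against 28.8, 12.1 and 39.1 TPM (log2 fold change -1.61 ± 0.13 SE, adjusted p = 0.000421). Neither overlapped between the groups, and in both genes every pair fell. Igfbp1 fell in each pair from 24.5, 2.81 and 23.4 TPM to 6.43, 1.90 and 11.2 TPM, with overlapping groups because the second pair was low in both media (log2 fold change -1.06 ± 0.23 SE, adjusted p = 0.046). The other members tested were Igfbp4 at -0.26 (adjusted p = 0.0637), Igfbp5 at -0.26 (adjusted p = 0.323), Igfbp7 at -0.54 (adjusted p = 0.28) and the receptors Igf1r at 0.077 (adjusted p = 0.855) and Igf2r at -0.10 (adjusted p = 0.715), none of them called. Igf1, Igf2 and Igfbp6 were below the minimum. These genes too were grouped after their values were seen. In 8C replicates 1 to 3, Igfbp2 stood at 98.5, 79.7 and 63.7 TPM, a smaller margin over the omission. Its call there was lost with same-numbered libraries as a block (adjusted p = 0.0524) and kept with no block. In 8C replicate 7, Igfbp2 stood at 84.3 TPM, above the omission, and Igfbp3 at 3.38 TPM, below it.

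Among the other large falls were a matrix protein, developmental transcription factors and an interferon-induced membrane protein. Ifitm1, of a family that restricts viral entry, stood at 0, 0.265 and 0.553 TPM without the inhibitor and 1.85, 6.65 and 17.4 TPM with it (log2 fold change -2.56 ± 0.33 SE, adjusted p = 0.00618), and it was tested only because of its level in the 8C libraries. Fn1, the matrix protein fibronectin, fell from 4.52, 5.05 and 9.63 TPM to 1.09, 1.29 and 1.90 TPM (log2 fold change -1.56 ± 0.17 SE, adjusted p = 0.00184). Its call was lost against 8C replicates 1 to 3, at 31.1, 1.55 and 20.6 TPM, where the second library lay within the range of the omission. The transcription factor genes Sox11 and Sox14 fell by 1.38 and 1.69 on the log2 scale, Sox11 from 3.59, 4.15 and 5.90 TPM to 0.861, 1.25 and 1.21 TPM (adjusted p = 0.00298) and Sox14 from 2.93, 6.42 and 6.91 TPM to 0.642, 1.12 and 0.976 TPM (adjusted p = 0.00205). Ramp3, which modifies the receptors for adrenomedullin and amylin, and Nudt10, a nudix hydrolase, fell by 1.45 and 1.27 (adjusted p = 0.000699 and 0.00426). Sox11, Sox14, Fn1 and Nudt10 did not overlap between the groups, and all of them stayed under 10 TPM in every one of the 6 libraries. Ramp3 did not overlap either, its lowest 8C library being at 8.97 TPM and its highest omission library at 8.47 TPM. In 8C replicate 7, Fn1, Sox14 and Ramp3 stood at 1.29, 0.488 and 7.30 TPM, at the level of the omission, while Sox11 and Nudt10 stood above it at 4.18 and 6.25 TPM.

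**Figure D1:**
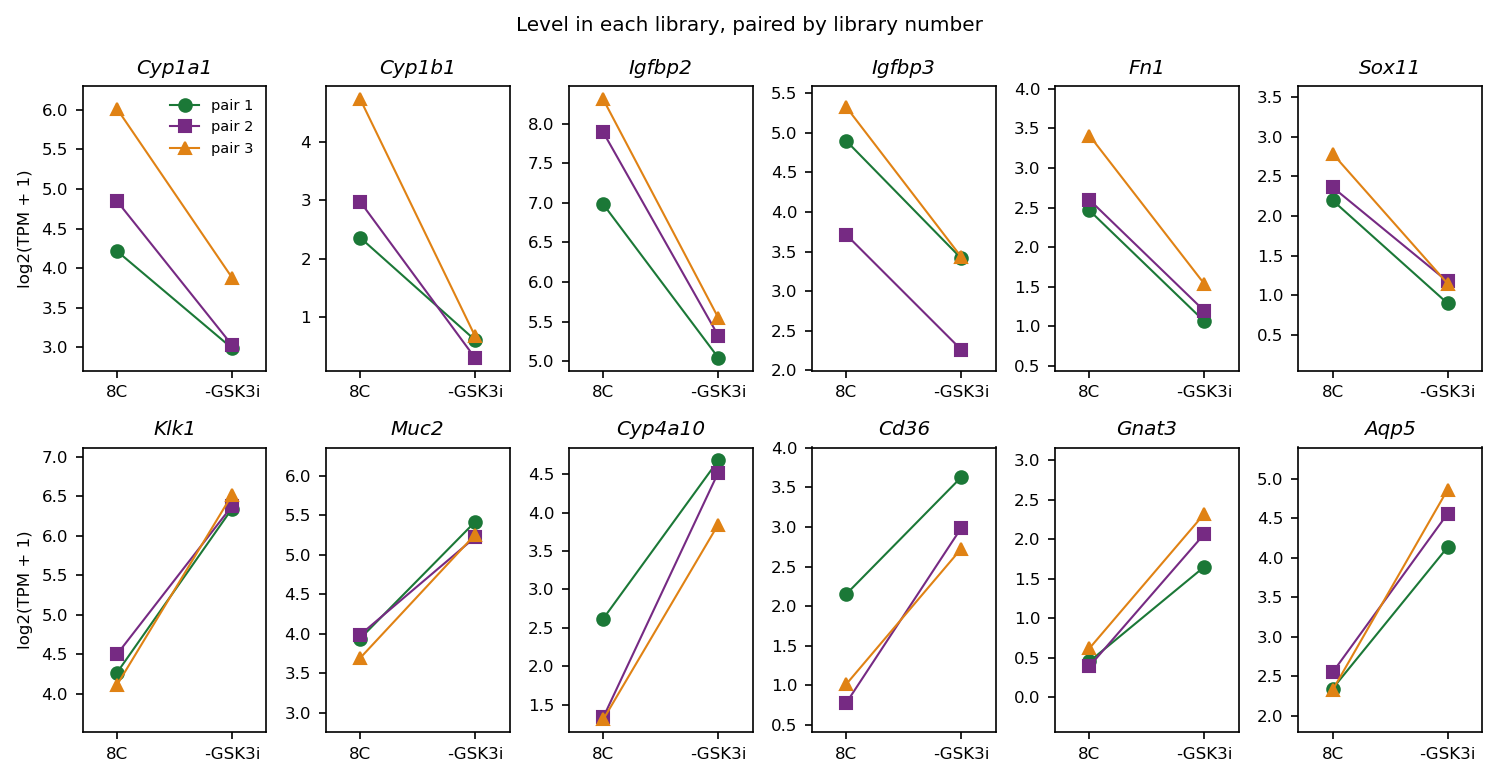
Level of 12 called genes, log2(TPM + 1), in 8C replicates 4 to 6 and 8C -GSK3i replicates 1 to 3. Each line joins a pair (omission number n with 8C number n + 3), the upper 6 genes fell and the lower 6 rose in all 3 pairs, and the vertical range differs between panels.

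Of 16 goblet cell genes tested, 3 were called higher without GSK3iXV and 0 lower, 15 lay above 0 where 47.7% of all genes did, and the median log2 fold change was 0.74 against -0.0095 for all genes. In bulk RNA, a change in the number of cells of a type cannot be told apart from a change in RNA per cell. Klk1, a kallikrein protease of mucous cells, stood at 80.0, 82.0 and 90.4 TPM in 8C -GSK3i and 18.3, 21.7 and 16.3 TPM in 8C (log2 fold change 2.11 ± 0.11 SE, adjusted p = 7.15e-05). Muc2, the mucin that forms the intestinal mucus gel, stood at 41.7, 36.3 and 37.1 TPM and 14.3, 14.9 and 11.9 TPM (log2 fold change 1.42 ± 0.11 SE, adjusted p = 0.000296). Both genes had narrow groups that lay far apart, and both were also called without the replicate block, while in 8C replicate 7 they stood between the groups, at 37.0 and 19.9 TPM. Clca1, a secreted protease of mucus, rose in every pair, from 11.8, 1.76 and 2.42 TPM to 25.6, 7.43 and 11.2 TPM, with groups that overlapped (log2 fold change 1.50 ± 0.17 SE, adjusted p = 0.00205). Spdef, the transcription factor of goblet cell maturation, and Fcgbp, a mucus protein, were higher by 0.90 (adjusted p = 0.00876) and 0.67 (adjusted p = 0.00118), short of 2-fold. The trefoil peptide Tff3 differed by 0.13 (adjusted p = 0.305). Zg16, a mucus lectin, stood at 58.0, 29.0 and 25.8 TPM against 20.9, 3.92 and 1.02 TPM, a difference of 2.59 (adjusted p = 0.0909) that did not pass the test. The count of 3 was 4 without replicate 1, 4 without replicate 2, 6 without replicate 3, 5 with a pseudocount of 0.1 TPM and 2 without the replicate block. With 8C replicates 1 to 3, whose Muc2 levels were 14.1, 13.5 and 21.2 TPM, 2 goblet cell genes were called higher and 2 lower, with a median of 0.081, where 3.47% and 2.29% of all genes were. Clca1, at 7.31, 14.8 and 16.8 TPM there, lost its call.

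Enterocyte genes differed widely between pairs. Of 26 tested, 4 were called higher and 0 lower, 24 lay above 0 and the median was 0.47. Treh, the brush border enzyme that splits trehalose, stood at 6.99, 8.34 and 6.99 TPM without the inhibitor and 2.84, 2.30 and 1.97 TPM with it (log2 fold change 1.33 ± 0.16 SE, adjusted p = 0.00251), with groups apart. Apoc3, a lipoprotein component, stood at 21.2, 16.6 and 16.3 TPM against 13.4, 4.43 and 2.71 TPM (log2 fold change 1.51 ± 0.27 SE, adjusted p = 0.0287), the first 8C library lying close under the omission. Cyp3a11, a drug-metabolising enzyme, was higher by 1.47 (adjusted p = 0.00218). Alpi, the intestinal alkaline phosphatase, was higher by 0.92 (adjusted p = 0.00602), below 2-fold. Fabp1, the fatty acid binding protein and the most abundant gene of the list, stood at 4246, 3746 and 3243 TPM against 2676, 1908 and 1146 TPM, apart in level but with a difference of 1.05 (adjusted p = 0.0645) that missed the test, as did those of Apoa4 at 2.29 (adjusted p = 0.0759) and the sucrase-isomaltase gene Sis at 1.84 (adjusted p = 0.0996). The first 8C library of the set had the highest level of Fabp1, Alpi, Apoc3 and Sis among 8C replicates 4 to 6. With 8C replicates 1 to 3 in their place, 10 enterocyte genes were called higher (against 3.47% of all genes) and 0 lower, with a median of 0.95, but Apoc3 and Cyp3a11 lost their call there. The count called higher was 11 without replicate 1, 9 without replicate 2, 3 without replicate 3 and 9 with mitochondrial genes removed. It was 8 with a pseudocount of 0.1 TPM, 2 with plain eBayes, 1 without the replicate block and 0 with no minimum level.

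Several of the largest rises belonged to fatty acid handling and to the brush border outside that list. Cyp4a10, an omega-hydroxylase of fatty acids, stood at 24.6, 22.0 and 13.4 TPM without GSK3iXV and 5.15, 1.52 and 1.48 TPM with it (log2 fold change 2.59 ± 0.20 SE, adjusted p = 0.000296). Cd36, a fatty acid transporter, stood at 11.4, 6.93 and 5.62 TPM and 3.45, 0.715 and 1.02 TPM (log2 fold change 1.80 ± 0.18 SE, adjusted p = 0.0011). For both genes every omission library was above every 8C library of the set. Creb3l3, a transcription factor of lipid metabolism, rose in each pair, by 1.09 (adjusted p = 0.0145), and all 13 genes tested of a fatty acid list made after these rises were seen lay above 0, with 3 called. Ggt1 (gamma-glutamyltransferase) rose by 2.09 (adjusted p = 0.000296), Akp3 (a second intestinal alkaline phosphatase) by 1.50 (adjusted p = 0.00298) and Cyp3a25 by 1.63 (adjusted p = 0.000871). Aqp5, a water channel of secretory epithelia, stood at 16.5, 22.5 and 28.0 TPM against 4.08, 4.86 and 4.01 TPM (log2 fold change 2.11 ± 0.16 SE, adjusted p = 0.000296). Its level in 8C replicates 1 to 3 was 17.3, 22.7 and 16.6 TPM, which is the level of the omission. The trefoil peptide Tff2 stood at 4.09, 2.48 and 3.11 TPM against 0, 0.733 and 0.313 TPM (log2 fold change 1.67 ± 0.25 SE, adjusted p = 0.00777). The calls of Cyp4a10, Ggt1, Akp3, Cyp3a25, Aqp5 and Tff2 were lost against 8C replicates 1 to 3.

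Of 9 tuft cell genes tested, 2 were called higher and 0 lower, with a median of 0.43. Gnat3, the taste G protein of tuft cells, stood at 2.14, 3.19 and 4.00 TPM against 0.371, 0.314 and 0.538 TPM (log2 fold change 1.52 ± 0.19 SE, adjusted p = 0.00293), and Trpm5, their cation channel, at 3.40, 4.25 and 4.51 TPM against 1.03, 1.50 and 1.60 TPM (log2 fold change 1.09 ± 0.16 SE, adjusted p = 0.00672). Both were low in level but apart in every library, also against 8C replicates 1 to 3, where Gnat3 stood at 0.852, 0.180 and 1.34 TPM and Trpm5 at 1.49, 1.07 and 1.46 TPM. Dclk1, a defining marker, measured 0.451, 0.643 and 0.501 TPM against 0.215, 0.126 and 0.0957 TPM, below the minimum for the test. Enteroendocrine genes were mixed. Of 19 tested, 3 were called higher and 0 lower, with a median of 0.13. The hormone genes Sst (somatostatin) and Gip rose by 1.09 (adjusted p = 0.000754) and 1.25 (adjusted p = 0.0101), Sst from 81.6, 45.7 and 52.8 TPM to 157, 89.9 and 139 TPM and Gip from 74.2, 34.9 and 34.6 TPM to 120.0, 93.1 and 113 TPM. Reg4, a lectin of enteroendocrine and other secretory cells, stood at 461, 427 and 461 TPM against 211, 199 and 221 TPM (log2 fold change 1.09 ± 0.061 SE, adjusted p = 7.15e-05), with narrow groups that lay apart. The pan-endocrine marker Chga differed by 0.026 (95% confidence interval -0.21 to 0.26, adjusted p = 0.945). In 8C replicates 1 to 3, Reg4 stood at 679, 803 and 580.0 TPM, above the omission, and the list's median against those libraries was -0.83, with 0 called higher and 9 lower (2.29% of all genes were). Sst lost its call there, at 60.2, 320.2 and 59.3 TPM, and Gip, at 119, 407 and 82.1 TPM, had the opposite sign.

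Paneth cell genes, 22 tested, had a median of 0.49, with 2 called higher and 0 lower. The called genes were Defa26, a defensin, at 28.5, 28.0 and 26.6 TPM against 17.0, 12.1 and 10.8 TPM (log2 fold change 1.03 ± 0.12 SE, adjusted p = 0.00293), and Mptx1, a pentraxin, at 5.97, 0.724 and 14.4 TPM against 2.84, 0 and 2.29 TPM (log2 fold change 1.29 ± 0.27 SE, adjusted p = 0.036). Mptx1 overlapped between the groups, with the second pair at or near 0. Defensin genes are close copies of each other, and reads could have been split between them. The Paneth cell markers Lyz1 (lysozyme), Mmp7 (a defensin-processing protease) and Ang4 (an antimicrobial ribonuclease) were not called: Lyz1 differed by -0.045 (95% confidence interval -0.20 to 0.11, adjusted p = 0.838), Mmp7 by 0.26 (adjusted p = 0.0816) and Ang4 by 0.46 (adjusted p = 0.00513). Lyz1 stood at 446, 532 and 415 TPM against 474, 489 and 466 TPM, which overlap. With 8C replicates 1 to 3 the list's median was 0.22, with 2 called higher and 1 lower, Defa26 lost its call and Mptx1 had the opposite sign.

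Wnt target genes had a median change near that of all genes. Of 26 tested, 0 were called in limma, 3 were higher and 6 lower at an unadjusted p under 0.05, 12 lay above 0 and 14 below, and the median was -0.024. Axin2, the feedback gene of the pathway, stood at 76.0, 109 and 98.4 TPM without GSK3iXV and 61.5, 98.2 and 135 TPM with it, a difference of 0.00089 (95% confidence interval -0.29 to 0.29, adjusted p = 0.999) on the log2 scale. Pair 1 was higher and pair 3 lower without the inhibitor. Sp5, whose window is shown above, stood at 74.5, 87.9 and 122 TPM against 67.7, 105 and 144 TPM, a difference of -0.12 (95% confidence interval -0.32 to 0.086, adjusted p = 0.634). The ubiquitin ligase genes Rnf43 and Znrf3, which remove Wnt receptors, differed by -0.052 (95% confidence interval -0.22 to 0.12, adjusted p = 0.829) and 0.17 (95% confidence interval -0.24 to 0.58, adjusted p = 0.751). Nkd1, a feedback inhibitor, differed by -0.33 (95% confidence interval -0.64 to -0.017, adjusted p = 0.296). Tcf7 differed by -0.0019 (95% confidence interval -0.23 to 0.23, adjusted p = 0.996) and Lef1 by -0.82 (95% confidence interval -1.28 to -0.36, adjusted p = 0.0731), Lef1 being at 0.694, 0.593 and 0.826 TPM against 1.15, 2.58 and 2.54 TPM, groups that did not overlap at levels near 1 TPM. With these pairs and 8C libraries, the intervals of Axin2, Sp5, Rnf43, Znrf3, Nkd1 and Tcf7 exclude a 2-fold change in either direction. That of Lef1 does not. Rnf43 differed by 0.76 against 8C replicates 1 to 3. Notum, Dkk1, Dkk2 and Dkk3 were below the minimum. Against 8C replicates 1 to 3 the list's median was -0.014, with 0 called higher and 0 lower.

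Apcdd1 and Tnfrsf19 were the Wnt targets that passed the adjusted p, both under 2-fold. Apcdd1, which encodes a membrane inhibitor of Wnt signalling, stood at 23.2, 30.7 and 31.3 TPM against 37.2, 42.0 and 52.1 TPM (log2 fold change -0.61 ± 0.10 SE, adjusted p = 0.0113). Tnfrsf19, a TNF receptor family member of crypt base stem cells, stood at 13.9, 18.6 and 19.6 TPM against 17.9, 28.0 and 38.2 TPM (log2 fold change -0.61 ± 0.13 SE, adjusted p = 0.0321). The Apcdd1 groups lay apart, and those of Tnfrsf19 overlapped at 19.6 and 17.9 TPM. At an adjusted p under 0.05 and any fold, 2.75% of all genes passed, against 2 of these 26. In 8C replicates 1 to 3, Apcdd1 stood at 31.5, 20.4 and 35.6 TPM, overlapping the omission, and Tnfrsf19 at 36.4, 24.2 and 47.8 TPM, above it.

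Upstream and downstream of the destruction complex, no gene was called by limma. Of the Wnt ligand genes and those that process ligands, 8 were tested, all below 0, with a median of -0.14 and 1 at an unadjusted p under 0.05. Wnt3, the ligand that Paneth cells supply to stem cells, differed by -0.14 (adjusted p = 0.752), and Wls, which carries Wnt proteins to the surface, by -0.14 (adjusted p = 0.545). Wnt3a, Rspo2 and Rspo3 were at 0 in all 6 libraries. The 15 receptor genes had a median of -0.053, with 1 higher and 1 lower at an unadjusted p under 0.05, Fzd5 having the largest rise at 0.49 (adjusted p = 0.0726). The 18 genes of the destruction complex and its transducers had a median of 0.014 and 0 at an unadjusted p under 0.05. Ctnnb1 differed by 0.061 (95% confidence interval -0.10 to 0.22, adjusted p = 0.78) and Apc by 0.16 (95% confidence interval -0.21 to 0.52, adjusted p = 0.741). The 14 nuclear factors had a median of 0.051, with 1 higher and 1 lower at that unadjusted p. With 8C replicates 1 to 3 the medians were -0.42 for ligands with 1 called higher, -0.24 for receptors and -0.073 for the destruction complex with 1 called lower in each, and -0.15 for nuclear factors with 0 called in limma and 0 higher and 5 lower at an unadjusted p under 0.05.

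The crypt base stem cell list, 20 genes tested, had a median of 0.042, 0 called by limma and 2 higher and 4 lower at an unadjusted p under 0.05. Lgr5, the R-Spondin receptor that marks these cells, stood at 36.0, 53.7 and 49.5 TPM against 42.4, 50.6 and 63.8 TPM, a difference of -0.17 (95% confidence interval -0.40 to 0.057, adjusted p = 0.506). Ascl2, a transcription factor of stem cells, stood at 55.9, 62.6 and 81.1 TPM against 27.2, 48.4 and 76.8 TPM, a difference of 0.48 (95% confidence interval 0.14 to 0.83, adjusted p = 0.158). Smoc2 differed by 0.047 (95% confidence interval -0.086 to 0.18, adjusted p = 0.795). Olfm4 varied widely between libraries, from 5.46 to 33.6 TPM in the omission alone, and its interval ran from -1.05 to 2.07. With 8C replicates 1 to 3 the list's median was -0.38, with 0 called higher and 2 lower.

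**Figure D2:**
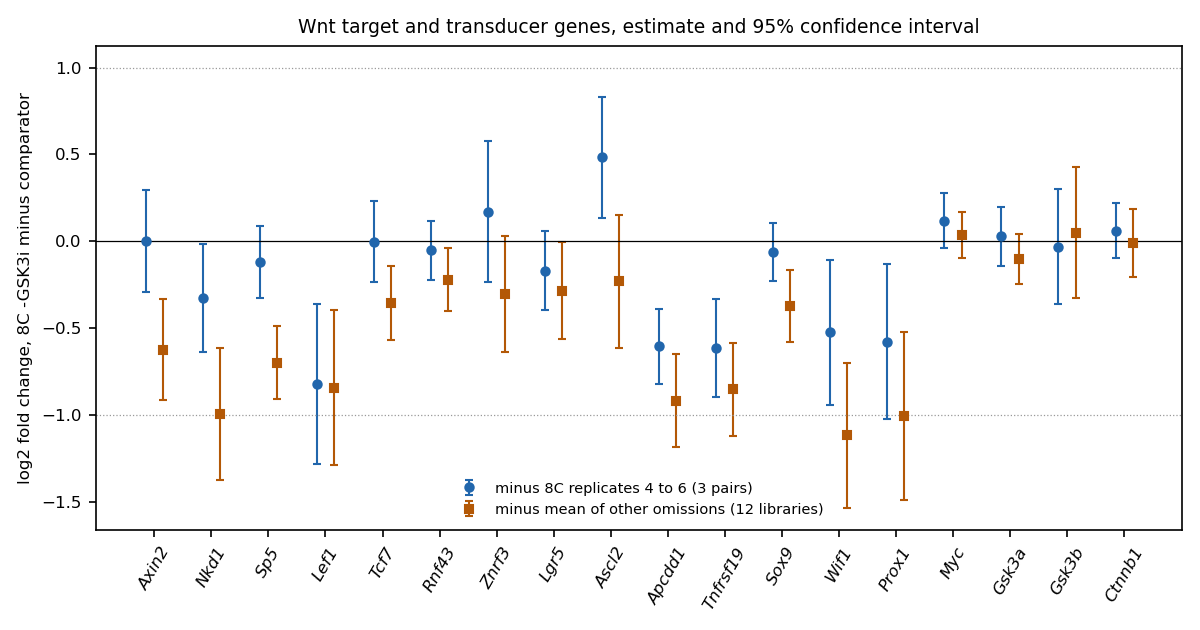
Log2 fold change with its 95% confidence interval for 18 Wnt target and transducer genes, 8C -GSK3i minus 8C replicates 4 to 6 (circles, 3 pairs) and minus the mean of 8C -bFGF, 8C -EGF and 8C -Pex (squares, 12 libraries). Dotted lines mark 2-fold, and the squares of Axin2, Nkd1, Sp5 and Apcdd1 lie below their circles.

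The study looked for a medium in which organoids carry markers of regeneration after injury. Of 29 such markers tested, 24 lay below 0 without GSK3iXV, against 52.3% of all genes, the median was -0.21, 0 were called by limma, 6 were lower at an adjusted p under 0.05 at any fold (1.39% of all genes), and 14 were lower at an unadjusted p under 0.05. Ly6a, which encodes the surface protein Sca1, stood at 432, 264 and 309.8 TPM against 811, 482 and 403 TPM (log2 fold change -0.72 ± 0.10 SE, adjusted p = 0.00503), overlapping between the groups although each pair fell. Clu, which marks revival stem cells, stood at 62.0, 32.5 and 31.0 TPM against 127, 56.2 and 40.6 TPM (log2 fold change -0.72 ± 0.12 SE, adjusted p = 0.012). Anxa1 (annexin A1) and the antimicrobial lectin Reg3b were lower, with log2 fold changes of -0.46 (adjusted p = 0.0217) and -0.50 (adjusted p = 0.0011), and Reg3g differed by -0.22 (adjusted p = 0.101). The libraries of pair 1 were the highest of both groups for all 5 genes. The count of 6 was 3 without replicate 1, 8 without replicate 2, 12 without replicate 3, 1 in the joint fit of 15 libraries, 1 with no minimum level, 0 with plain eBayes and 0 without the replicate block, these last fits in limma leaving 12 and 4 lower at an unadjusted p under 0.05. The direction of Ly6a, Anxa1, Reg3b and Reg3g depended on the 8C libraries, and that of Clu was not reversed. In 8C replicates 1 to 3, Ly6a stood at 62.6, 104 and 61.0 TPM and Reg3b at 664, 633 and 575 TPM, below the omission. Against those libraries 11 of these markers were called higher and 3 lower, where 3.47% and 2.29% of all genes were. The median there was 0.82.

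The study drew its injury signature from published data on crypts injured in mice, as genes changed alike in several injury models. Of 55 of its upregulated genes tested, 0 were called by limma, 5 were higher and 13 lower at an unadjusted p under 0.05, and the median was -0.11. With 8C replicates 1 to 3 the sign was the opposite, with 11 called higher (3.47% of all genes were), 0 lower and a median of 0.46. Of 52 tested genes of its downregulated part, 4 were called higher and 0 lower, with a median of 0.27, against 11 higher, 0 lower and 0.44 with 8C replicates 1 to 3. The called genes were Aoc1, which degrades histamine and polyamines, at 1.15 (adjusted p = 0.00217), the chemokine Ccl6 at 1.36 (adjusted p = 0.00282), the carboxylesterase Ces1f at 1.45 (adjusted p = 0.00159) and the glutathione transferase Gstm3 at 1.32 (adjusted p = 0.00997). Gstm3 stood at 1324, 1111 and 877 TPM against 720.1, 443 and 261 TPM, groups that lay apart. Gstm3 and Gsta2, the latter at 1.15 (adjusted p = 0.00205), were also the 2 called genes of 26 in the list of NRF2 and glutathione genes, whose median was 0.094.

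The lists of mitosis, S phase, cholesterol synthesis, interferon-stimulated, p53 target and glycogen genes held 0 called genes in limma. Mitosis genes (30 tested, median 0.11, 3 higher and 0 lower at an unadjusted p under 0.05) and genes of DNA replication and S phase (36 tested, median 0.10, 8 higher and 1 lower at an unadjusted p under 0.05) lay slightly above 0. The proliferation marker Mki67 differed by 0.11 (95% confidence interval -0.072 to 0.30, adjusted p = 0.613) and Pcna by 0.028 (95% confidence interval -0.11 to 0.17, adjusted p = 0.894). Cholesterol synthesis genes (25 tested, median 0.16, 8 higher and 0 lower at an unadjusted p under 0.05) lay above 0 in 24 of 25. Interferon-stimulated genes (24 tested, median -0.21, 0 higher and 8 lower at an unadjusted p under 0.05) and p53 target genes (24 tested, median -0.16, 0 higher and 9 lower at an unadjusted p under 0.05) lay below 0 in 22 of 24 each. Glycogen genes (21 tested, median -0.027, 0 higher and 2 lower at an unadjusted p under 0.05) did not move together. Glycogen synthase Gys1 differed by 0.015 (95% confidence interval -0.19 to 0.23, adjusted p = 0.967), and Stbd1, a glycogen-binding protein, was the gene of this list that passed the adjusted p, at -0.71 (adjusted p = 0.0222). Against 8C replicates 1 to 3 the medians of mitosis, S phase, interferon-stimulated, p53 target and glycogen genes had the other sign, and 6 of 20 interferon-stimulated genes, 1 p53 target gene and 1 glycogen gene were called higher. The 5 medians there were -0.55, -0.35, 0.36, 0.36 and 0.074.

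**Figure D3:**
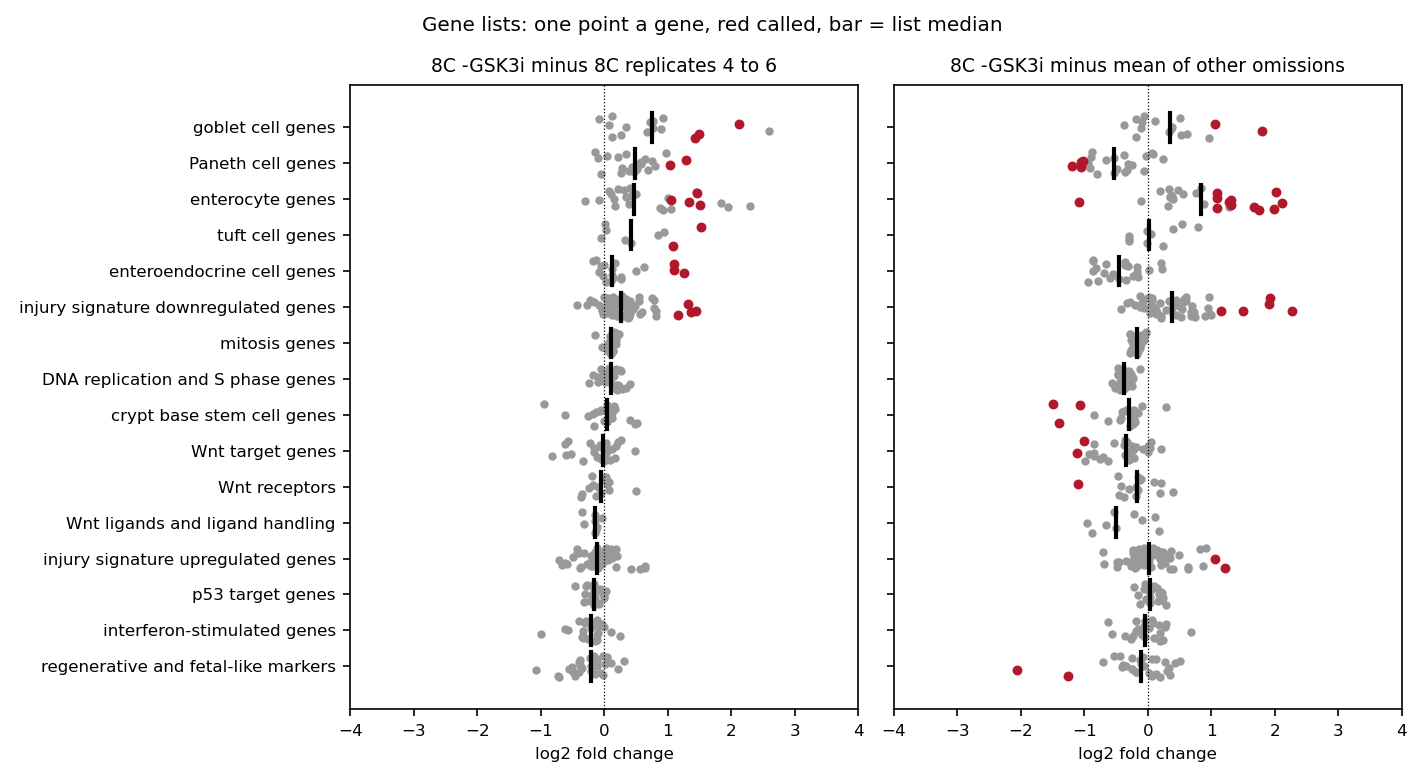
Log2 fold change of each tested gene of 16 lists (points, called genes in red) with the list median (bar), 8C -GSK3i minus 8C replicates 4 to 6 on the left and minus the mean of the other omissions on the right. On the left the called genes lie in the lists of differentiated cells and the injury signature's downregulated genes, all above 0, and Wnt target genes centre near 0.

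The second comparison asked how the omission of GSK3iXV differed from the omission of another component. It used none of the 8C libraries but the same omission libraries, so its values are not independent of those above. Against the mean of 8C -bFGF, 8C -EGF and 8C -Pex, with the library number as a block, 179 of 12764 genes were called (1.4%), 113 higher (0.885%) and 66 lower (0.517%). Against each omission alone, 80 genes were called for 8C -bFGF (0.627%, with 56 or 0.439% higher and 24 or 0.188% lower), 604 for 8C -EGF (4.73%, with 382 or 2.99% higher and 222 or 1.74% lower) and 185 for 8C -Pex (1.45%, with 86 or 0.674% higher and 99 or 0.776% lower). These shares are the background for the counts of calls against the mean and against each omission below. The 8C -EGF libraries stood farthest off and weighed on the mean, and without them 88 genes were called, 55 higher and 33 lower.

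Among the 4 omission media, Cyp1a1, Cyp1b1, Igfbp2 and Igfbp3 were lowest in 8C -GSK3i. Cyp1a1 stood at 19.9, 29.8 and 78.1 TPM in 8C -bFGF, 27.5, 33.1 and 54.9 TPM in 8C -EGF and 24.6, 21.7 and 94.8 TPM in 8C -Pex, each above every 8C -GSK3i library. Its log2 fold changes were -1.91 against 8C -bFGF, -1.94 against 8C -EGF and -1.96 against 8C -Pex (adjusted p = 0.0064, 0.000217 and 0.00109). Those of Cyp1b1 were -3.36 against 8C -bFGF, -3.17 against 8C -EGF and -3.74 against 8C -Pex (adjusted p = 0.00233, 7.9e-05 and 0.000157). Igfbp2 changed by -2.30 against 8C -bFGF, -3.06 against 8C -EGF and -2.12 against 8C -Pex (adjusted p = 0.00436, 2.99e-05 and 0.00116), and Igfbp3 by -1.80 against 8C -bFGF, -2.56 against 8C -EGF and -1.18 against 8C -Pex (adjusted p = 0.00328, 1.69e-05 and 0.00441). For these genes all 9 libraries of the other omissions lay above the 3 without GSK3iXV. 8C replicate 7, which also held GSK3iXV, did not lie above them for Cyp1b1 and Igfbp3. Ifitm1 was lower against the mean (-2.99 ± 0.67 SE, adjusted p = 0.016), but in 8C -Pex it stood at 0.240, 3.38 and 2.51 TPM, with 1 library at the level of the omission of GSK3iXV, and its change there was -1.09 (adjusted p = 0.475). Of 29 regenerative markers, 0 were called higher, and the median was -0.11, with Clu called lower (-1.26 ± 0.29 SE, adjusted p = 0.0166).

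The rises differed in this respect. Aqp5 (2.57 ± 0.21 SE, adjusted p = 0.000225), Akp3 (2.50 ± 0.25 SE, adjusted p = 0.000387) and Ces1f (2.27 ± 0.29 SE, adjusted p = 0.00118) were higher against the mean and against each of the other omissions. Aqp5 stood at 2.56, 2.53 and 2.80 TPM in 8C -bFGF, 0.235, 1.43 and 0.0715 TPM in 8C -EGF and 6.27, 11.9 and 11.6 TPM in 8C -Pex. Klk1, by contrast, stood at 81.7, 94.8 and 74.5 TPM in 8C -Pex, the level seen without GSK3iXV, and at 21.6, 25.8 and 22.5 TPM in 8C -bFGF, so that its changes were 1.81 against 8C -bFGF, 1.37 against 8C -EGF and 0.013 against 8C -Pex (adjusted p = 0.00364, 0.000537 and 0.98). Muc2 stood at 50.5, 66.9 and 44.6 TPM in 8C -Pex, and its change there was -0.46 (adjusted p = 0.231). Reg4, Sst and Gip were lower than in 8C -Pex, with changes of -1.19, -1.61 and -1.66 (adjusted p = 0.000406, 0.000972 and 0.000723), and Sst and Gip were higher than in 8C -bFGF, by 1.50 and 1.31 (adjusted p = 0.0064 and 0.0088). Enteroendocrine genes as a list had medians of 0.11, -0.58 and -1.19 against 8C -bFGF, 8C -EGF and 8C -Pex. Against 8C -Pex 12 were called lower, where 0.776% of all genes were. Against 8C -bFGF 2 were called higher (0.439% of all genes), and against 8C -EGF 1 was called lower (1.74%).

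Enterocyte genes were the list with most calls in this comparison, 11 higher and 1 lower of 27, with a median of 0.84. Fabp1 rose over each omission, by 1.38 against 8C -bFGF, 3.77 against 8C -EGF and 0.79 against 8C -Pex (adjusted p = 0.0105, 4.12e-06 and 0.0431), though by less than 2-fold over 8C -Pex. Sis (2.12 ± 0.50 SE, adjusted p = 0.0198) and the mucosal scavenger receptor Dmbt1 (2.06 ± 0.30 SE, adjusted p = 0.00217) were higher against the mean, and each had its largest difference against 8C -EGF, by 3.68 and 4.72. The 1 gene called lower was Anpep, a brush border aminopeptidase (-1.08 ± 0.14 SE, adjusted p = 0.00121). The list's medians were 0.59 against 8C -bFGF, 1.36 against 8C -EGF and 0.27 against 8C -Pex. The calls were unevenly spread, with 14 higher against 8C -EGF (2.99% of all genes were), 6 against 8C -bFGF (0.439%) and 1, Treh, against 8C -Pex (0.674%).

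Wnt target genes lay lower than in the other omissions. Of 28 tested, 12 were lower and 0 higher at an adjusted p under 0.05 at any fold, where 6.4% of all genes were lower, 23 lay below 0, and the median was -0.34. Wif1, a secreted Wnt inhibitor, and the transcription factor Prox1 were called (-1.12 ± 0.19 SE, adjusted p = 0.0041, and -1.01 ± 0.22 SE, adjusted p = 0.0137). Axin2 was lower (-0.62 ± 0.13 SE, adjusted p = 0.0118), as were Nkd1 (-0.99 ± 0.17 SE, adjusted p = 0.00455), Sp5 (-0.70 ± 0.10 SE, adjusted p = 0.00155), Apcdd1 (-0.92 ± 0.12 SE, adjusted p = 0.00134), Tnfrsf19 (-0.85 ± 0.12 SE, adjusted p = 0.00189) and Lef1 (-0.84 ± 0.20 SE, adjusted p = 0.0207), all under 2-fold. The 8C -EGF libraries were the highest: Axin2 stood at 180.4, 249 and 155 TPM there, at 104, 151 and 147 TPM in 8C -bFGF and at 80.8, 137 and 154 TPM in 8C -Pex. The changes of Axin2 were -0.50 against 8C -bFGF, -1.02 against 8C -EGF and -0.35 against 8C -Pex (adjusted p = 0.183, 0.00109 and 0.226), and those of Sp5 were -0.51 against 8C -bFGF, -1.04 against 8C -EGF and -0.55 against 8C -Pex (adjusted p = 0.0613, 0.000156 and 0.0191). By list, 2, 16 and 3 Wnt targets were lower at an adjusted p under 0.05 against 8C -bFGF, 8C -EGF and 8C -Pex, where 0.619%, 16.6% and 3.31% of all genes were, with medians of -0.27, -0.64 and -0.18. Fzd10, a Wnt receptor, was called lower (-1.09 ± 0.20 SE, adjusted p = 0.00633), at 0, 0.267 and 0.0620 TPM without GSK3iXV. It reached the minimum mean of 1 TPM only through the other omissions, as did Cyp1b1 and Ifitm1 in this comparison.

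Crypt base and cell cycle genes lay lower too. Of 20 crypt base stem cell genes, 3 were called lower (Olfm4, Clca3b and Fstl1) and 0 higher, with a median of -0.29. Olfm4 was highest in the 8C -EGF libraries, at 302, 1006 and 326 TPM, and differed by 0.72 and -0.19 against 8C -bFGF and 8C -Pex (adjusted p = 0.51 and 0.837). Without the 8C -EGF libraries, 0 genes of this list and 0 Wnt target genes were called in limma, and their medians were -0.20 and -0.23. All 36 genes of DNA replication and S phase lay below 0, where 56.8% of all genes did, 25 of them at an adjusted p under 0.05 and 0 by 2-fold, with medians of -0.19 against 8C -bFGF, -0.52 against 8C -EGF and -0.37 against 8C -Pex. Paneth cell genes had a median of -0.53 with 4 defensins called lower, and the median without the 8C -EGF libraries was -0.068. Lyz1 stood at 1399.6, 1855 and 1654 TPM in 8C -EGF and at 446, 652 and 576 TPM in 8C -bFGF. NRF2 and glutathione genes had 5 called higher of 26, among them Nqo1 (1.02 ± 0.17 SE, adjusted p = 0.00351) and Gstm3 (1.91 ± 0.19 SE, adjusted p = 0.000352).

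**Figure D4:**
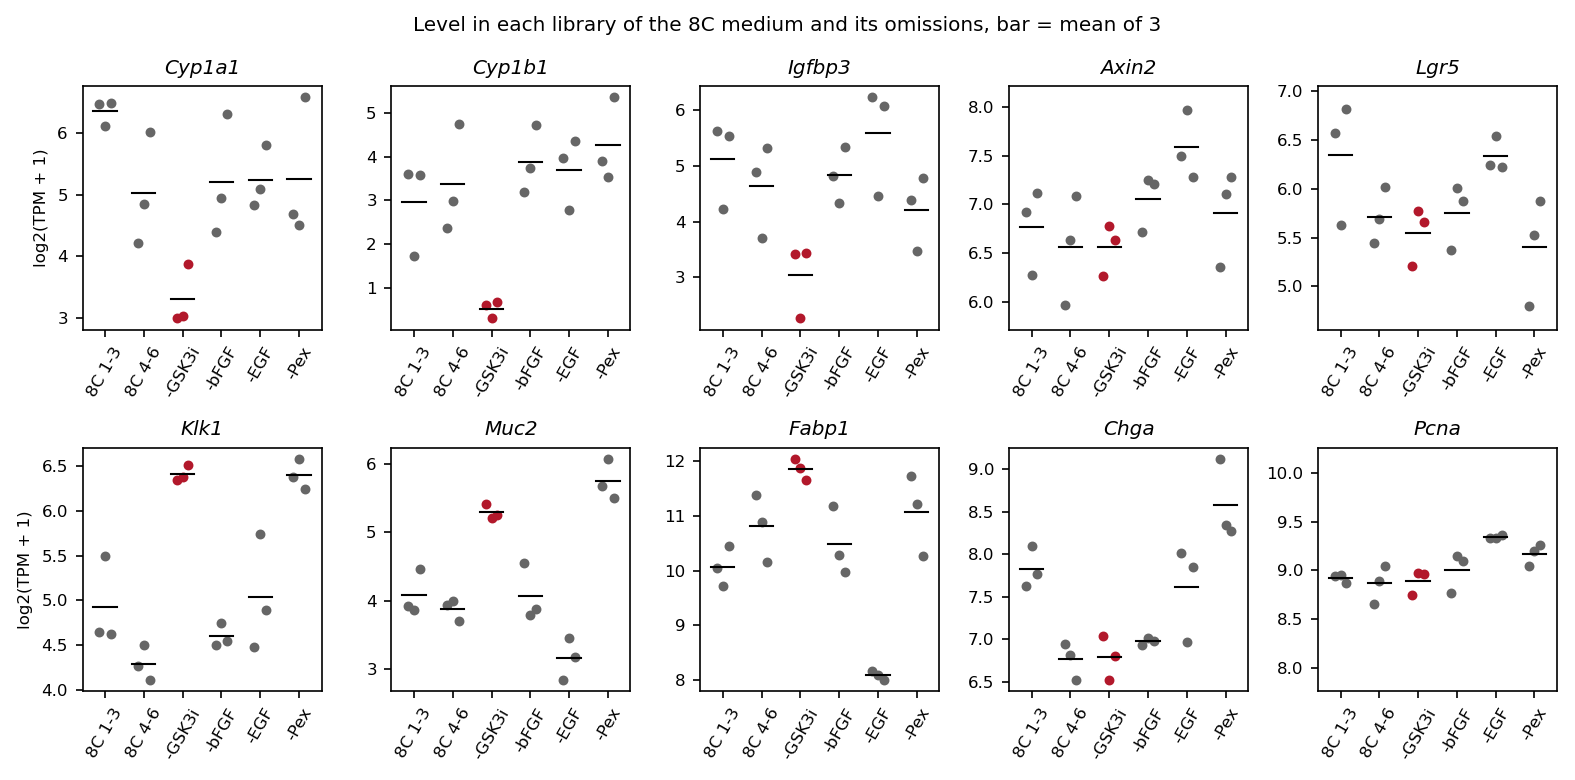
Level of 10 genes, log2(TPM + 1), in 8C replicates 1 to 3, 8C replicates 4 to 6, 8C -GSK3i (red) and the other 3 omissions, with 3 libraries a group (points) and their mean (bar), without 8C replicate 7. Of the groups shown, Cyp1a1, Cyp1b1 and Igfbp3 are lowest in 8C -GSK3i. Klk1 and Muc2 are high in both 8C -GSK3i and 8C -Pex, and the vertical range differs between panels.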

How the data were processed

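RNA-seq reads of the bulk libraries were trimmed with Trimmomatic 0.39, aligned to mm10 with STAR 2.7.3a and counted with featureCounts, per the submitters' processing notes, and the authors deposited TPM for each gene and library in a table of 67 libraries. The TPM values sum to between 986067 and 987612 in each of the libraries used here. They keep no depth, so no counting interval was given, and no column was left unmapped (0). Predicted genes without a symbol of their own were not named.

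Values were analysed as log2(TPM + 1) with limma 3.58.1 in R 4.3.3 (robust eBayes with an intensity trend, statmod 1.5.0). Genes under a mean of 1 TPM in the libraries of a comparison were not tested. Called genes had a Benjamini-Hochberg adjusted p under 0.05 across all tested genes and differed by 2-fold or more. The pairing of omission number n with 8C number n + 3 entered as a replicate block. Pearson correlations of the paired deviations from group means, across genes, were 0.65, 0.20 and 0.41, and each 8C -GSK3i library correlated best with its partner among 8C replicates 4 to 6. Xist was high and Y-linked genes were near 0 in pairs 1 and 2, and the reverse in pair 3. Same-numbered pairs with 8C replicates 1 to 3 gave -0.067, -0.27 and -0.26. The comparison with the other omissions used 12 libraries and blocked on the replicate number (same-number correlations between 0.27 and 0.61). The members, lists and pairing were chosen with earlier results of these data known. Genes named are called or defining members of the lists, the 10 largest rises and 10 largest falls whose pairs share a sign, and the 5 largest in each direction against the other omissions. Further list members were named as examples after their values were seen. In simulated data, the first comparison called 82 of 100 genes planted at 2.5-fold and 93 of 100 at 4-fold, with 1 unchanged gene. The second called 98 and 98, with 0 unchanged genes. The simulation took the replicate block as true and planted changes only in genes above the minimum level. It therefore does not bear on the pairing, the choice of 8C libraries or changes of genes near 1 TPM. Upstream sequences came from RefSeq (GRCm38.p6). Alternatives changed the pseudocount, scaling, minimum level, moderation, block, 8C libraries and replicates. Removal of mitochondrial genes and of the 8C -EGF libraries was added after the data were seen. Some named genes are not reported here.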

Additional observations from a re-analysis of the deposited data

How the results depend on the processing

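The count of 89 called genes against 8C replicates 4 to 6 became 129 with a pseudocount of 0.1 TPM, 55 with a minimum mean of 5 TPM, 13 with no minimum, 55 with plain eBayes, 57 in a joint fit of 15 libraries, 349 with no minimum fold, and 78 to 137 when a replicate pair was left out. No replicate block left 7, and of the 36 called genes that the naming rule picked 5 kept their call without it. Against 8C replicates 1 to 3 the count was 732 with a same-number replicate block and 904 with no block. Against all 7 8C replicates, in a fit that also had no block, it was 0. The cause of these shifts was not tested. The 179 genes called against the other omissions became 301 with the smaller pseudocount, 88 without the 8C -EGF libraries, 1661 with no minimum fold, 135 without the replicate block, and 127 to 182 when a replicate number was left out. Without the block, the 80 genes against 8C -bFGF became 22 and the 185 against 8C -Pex became 121.

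Signs were reversed against 8C replicates 1 to 3, with or without the block, for Axin2 (-0.21), Rnf43 (0.76), Znrf3 (-0.045), Sp5 (0.28), Olfm4 (-0.96), Smoc2 (-0.65), Chga (-1.04), Apoa4 (-0.89), Ly6a (2.14), Anxa1 (1.22), Reg3b (1.26), Reg3g (1.75), Gsk3a (-0.031), Ccl6 (-0.12), Gip (-0.55), Mptx1 (-0.63) and Reg4 (-0.60). Against all 7 8C replicates they were reversed for Axin2 (-0.040), Rnf43 (0.37), Sp5 (0.28), Olfm4 (-0.31), Smoc2 (-0.093), Chga (-0.33), Ly6a (0.41), Anxa1 (0.18), Reg3b (0.13) and Reg3g (0.53). Axin2 was at -0.00099 with quantile normalization and -0.0020 with scaling to the 75th percentile, and Tcf7 at 0.0055 with mitochondrial genes removed. With a pair left out, the ranges were -0.15 to 0.23 for Axin2, -0.13 to 0.084 for Tcf7, -0.082 to 1.31 for Olfm4, -0.13 to 0.017 for Lyz1, -0.10 to 0.18 for Chga, -0.0099 to 0.053 for Gsk3a and -0.27 to 0.18 for Gsk3b. Calls lost without the third pair included Apoc3, Aoc1, Defa26, Gip, Mptx1 and Sst. TPM values without depth leave the precision of genes near 1 TPM, such as Lef1, Fzd10 and Tff2, unknown.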
